A study of Glycine max with 18 samples.

Results

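The 200 genes described here were the ones whose transcript level varied least through the germination of low-phytate (LPA) soybean seeds. Their level was measured as FPKM, the fragments of a gene scaled to the length of its transcript and the depth of its library. Members were chosen by their level and their spread in 3 steps. Genes with a mean of at least 10 FPKM over the 18 libraries were kept, which left 10540 of 45955 genes. The 100 genes of highest mean FPKM in the 6 stage 1 libraries were left out, which left 10440 eligible genes. The 200 of these with the smallest standard deviation (SD) of log2(FPKM + 1) over all 18 libraries were taken. The small SD of a member, and small differences between the groups, therefore follow from the choice and are given as a description. The same holds for counts of members called in a comparison, which the choice limits. TW-1 is a LPA mutant obtained by gamma irradiation of the cultivar Taiwan 75 and is labelled with very low field emergence of its seeds. TW-1-M arose in TW-1 as a natural mutant, carries the same MIPS1 mutation and is labelled with higher field emergence than TW-1. The 6 groups, with 3 replicate libraries each, were named after mutant and stage. Stage 1 was imbibition (TW-1-M-1, with TW-1-1 as its counterpart), stage 2 was labelled as 12 h later than the end of imbibition (TW-1-M-2, with TW-1-2) and stage 3 was a primary root of 1 mm (TW-1-M-3, with TW-1-3). The study's methods give a shorter interval between stages 1 and 2 than that label, so the timing of stage 2 is uncertain. Seeds of both mutants germinated in the dark on agar. The series holds libraries of these 2 mutants and none of the wild type, so that both mutants share the low-phytate background in every comparison.

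A dry soybean seed holds messenger RNA stored at maturation, and water uptake restarts respiration, protein synthesis and transcription before the root emerges. During this time the transcripts of seed storage and late embryogenesis proteins decay and those of cell wall growth, cytoskeleton and metabolism accumulate, so that the make-up of the RNA changes widely. Transcripts that keep an even level through such a change often encode basic functions of the cell, and such transcripts are sought as reference genes for quantitative PCR.

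The summed FPKM of a library was 683231 to 1296622, a 1.90-fold range, and the table holds no read counts per gene, so that the counting error behind a single value was not computed. TW-1-3 replicate 1 stood apart from the other libraries. Its mean correlation with the other 2 libraries of its group was 0.779, and that of the other 17 libraries with their own group was 0.867 to 0.972 across genes. It was also the library in which the largest number of members, 36 of 200, lay farthest from their own mean (32 above it and 4 below it), ahead of 18 in TW-1-M-3 replicate 1 and 17 in TW-1-1 replicate 3. When the choice was repeated without TW-1-3 replicate 1, 142 of the 200 members were chosen again. Leaving out any other single library kept 169 to 184 of them. The labels do not say whether replicates came from separate seed lots, so the p-values below measure only the spread between these libraries, which may be technical. FPKM is a relative measure, and in RNA of whole seeds fewer cells of a type and less RNA per cell cannot be told apart.

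Of the 200 members, 180 were matched to a RefSeq gene of Glycine_max_v4.0, all of them protein-coding, and 20 were known only by their RefSeq accession. Gene names were rare. Only 7 members carried one, 3.89% of those matched, against 6.44% of the matched eligible genes, and 1 further member, XM_014779145.1, had a product name. The other 173 matched members had a LOC symbol alone, so their functions are not given. By accession type, 166 members (83%) were predicted transcripts of the XM type, against 77.2% of the eligible genes, 33 (16.5%) were curated NM transcripts, against 22.2%, and 1 was a non-coding RNA of the XR type, against 65 such genes (0.623%) among the eligible ones. Along the chromosomes, 2 pairs of members were direct neighbours among the protein-coding genes of that assembly, LOC100787572 with LOC100788102 and LOC100804256 with LOC100805319.

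Members were mostly of moderate level. Their mean was 10.01 to 471 FPKM with a median of 20.7 FPKM, against a median of 25.2 FPKM in the eligible genes. Below 20 FPKM lay 97 members (48.5%), against 39.6% of the eligible genes, and above 100 FPKM lay 8 members (4%), against 13.6%. The SD of log2(FPKM + 1) was 0.106 to 0.211 with a median of 0.188 in the members, and its median was 0.612 in the eligible genes. In linear terms, the ratio of the highest to the lowest of the 18 FPKM values was 1.28 to 1.97 in the members, with a median of 1.64. It was under 1.5 in 28 members and under 2 in all 200, and 630 eligible genes (6.03%) had a ratio under 2. At the limit of the choice the spread changed gradually. The last 5 members inside it were XM_014779145.1, LOC100789217, LOC100804064, LOC100792408 and LOC100798637, with an SD of 0.2106 to 0.2112. The first 5 outside it were XM_014767053.1, LOC100812030, LOC100500435, XR_001386212.1 and LOC100808583, with an SD of 0.2113 to 0.2122.

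**Figure D1:**
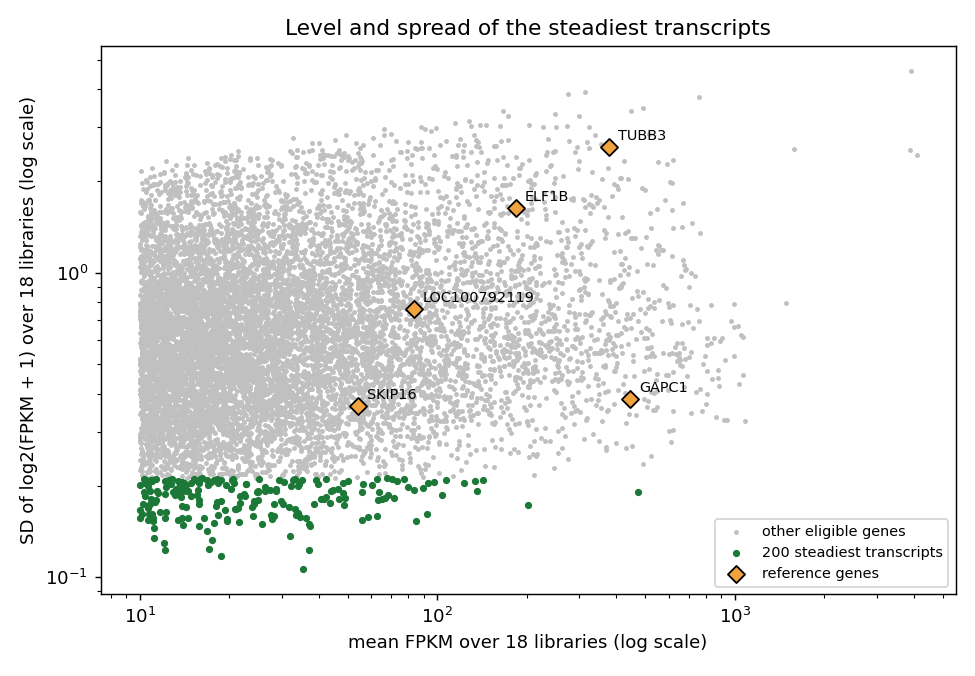
Mean FPKM of each of the 10440 eligible genes (x axis, log scale) against the SD of its log2(FPKM + 1) over 18 libraries (y axis, log scale), with the 200 members in green, other eligible genes in grey and 5 reference genes as diamonds. The members fill the lower edge from 10.01 to 471 FPKM, and the reference genes lie above it with an SD of 0.366 to 2.58.

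On the deposited scale the steadiest gene was LOC100782712, with an SD of 0.106 and a mean of 35.3 FPKM. Its rank depended on the scaling. It was 807, with an SD of 0.281, after each library was rescaled to an equal sum, and 179 after quantile normalization. LOC100782712 had 31.5, 39.7 and 36.2 FPKM in TW-1-M-1, against 34.8, 33.8 and 32.4 FPKM in TW-1-1. LOC100782712 at stage 2 had 35.2, 34.2 and 37.8 FPKM in TW-1-M-2, against 36.3, 30.98 and 37.5 FPKM in TW-1-2. LOC100782712 at stage 3 had 31.3, 35.8 and 37.1 FPKM in TW-1-M-3, against 39.2, 37.7 and 34.2 FPKM in TW-1-3. All 18 values lay within 1.28-fold of each other, and the mutants overlapped at every stage. The second, XM_014774060.1, had an SD of 0.118 and a mean of 18.7 FPKM. XM_014774060.1 had 20.2, 19.4 and 18.1 FPKM in TW-1-M-1, against 19.8, 22.4 and 19.1 FPKM in TW-1-1. XM_014774060.1 at stage 2 had 17.6, 19.2 and 17.7 FPKM in TW-1-M-2, against 18.5, 17.5 and 16.1 FPKM in TW-1-2. XM_014774060.1 at stage 3 had 21.04, 18.4 and 20.3 FPKM in TW-1-M-3, against 18.1, 17.2 and 16.5 FPKM in TW-1-3. Its mutants overlapped at stages 1 and 2 and not at stage 3, where all TW-1-M libraries lay above all TW-1 libraries by a small margin. The third, LOC100783113, had a mean of 37.2 FPKM and an SD of 0.123, and ranged over 1.40-fold. PDIQ-1A was the fourth and is described below. Ranks 5 to 10 were held by LOC100813911, LOC100788714, LOC100814578, LOC100777597, LOC100794578 and XM_014762464.1, with an SD of 0.124 to 0.142 and means of 11.2 to 32.0 FPKM. None of the genes up to rank 10 was chosen again after each library was rescaled to an equal sum.

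Among the named members, SNF5 and the photolyase act on chromatin and DNA. SNF5, at rank 53, is a core subunit of the SWI/SNF complexes, which move nucleosomes. SNF5 had 23.7, 21.1 and 24.1 FPKM in TW-1-M-1, against 19.7, 21.3 and 22.00 FPKM in TW-1-1. SNF5 at stage 2 had 19.7, 27.1 and 22.98 FPKM in TW-1-M-2, against 20.3, 21.1 and 19.9 FPKM in TW-1-2. SNF5 at stage 3 had 23.3, 19.9 and 16.8 FPKM in TW-1-M-3, against 21.6, 18.6 and 16.6 FPKM in TW-1-3. The TW-1-M mean was the higher one at each stage, and the mutants overlapped at each stage. The spread of SNF5 over all libraries was an SD of 0.168 around a mean of 21.1 FPKM. XM_014779145.1, at rank 196, is annotated as a (6-4) DNA photolyase, an enzyme that uses light to repair a pyrimidine lesion made by ultraviolet light. XM_014779145.1 had 87.8, 72.6 and 63.2 FPKM in TW-1-M-1, against 71.97, 56.9 and 63.5 FPKM in TW-1-1. XM_014779145.1 at stage 2 had 64.6, 73.04 and 76.3 FPKM in TW-1-M-2, against 59.7, 55.9 and 55.1 FPKM in TW-1-2. XM_014779145.1 at stage 3 had 81.1, 77.3 and 69.1 FPKM in TW-1-M-3, against 72.5, 91.1 and 75.01 FPKM in TW-1-3. The 2 mutants did not overlap at stage 2, where all TW-1-M libraries were higher, with 71.3 ± 6.05 FPKM in TW-1-M-2, against 56.9 ± 2.45 FPKM in TW-1-2 (mean and SD, n = 3 each), a log2 fold change of 0.32. It was the least secure of the named members, since it was chosen again in only 6 of the 18 choices that left out a library. LOC100808627 (GmCRY2c), a cryptochrome of the same protein family that acts as a blue light receptor, fell just outside the list at rank 208, with an SD of 0.212 and a mean of 45.5 FPKM. Of the other 6 cryptochrome genes found by symbol, 2 were eligible and varied more, LOC100233234 with an SD of 0.506 at rank 3962 and LOC100797839 with an SD of 0.595 at rank 5025.

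PDIQ-1A and COPE1 belong to the secretory pathway. PDIQ-1A encodes a protein disulfide isomerase, an enzyme of the endoplasmic reticulum that forms disulfide bonds while proteins fold. PDIQ-1A had 12.5, 11.8 and 11.9 FPKM in TW-1-M-1, against 13.5, 13.9 and 10.7 FPKM in TW-1-1. PDIQ-1A at stage 2 had 13.3, 11.6 and 13.7 FPKM in TW-1-M-2, against 13.8, 11.50 and 12.6 FPKM in TW-1-2. PDIQ-1A at stage 3 had 11.7, 10.3 and 12.1 FPKM in TW-1-M-3, against 11.8, 11.7 and 10.5 FPKM in TW-1-3. All values lay within 1.34-fold, and the mutants overlapped at every stage. The SD of PDIQ-1A was 0.123 around a mean of 12.2 FPKM. The other 5 genes of the family found by symbol were more variable, with an SD of 0.573 to 1.35. One of them, PDIM-1, in TW-1-M averaged 15.9 ± 2.54 FPKM at stage 1, 27.8 ± 5.86 FPKM at stage 2 and 33.6 ± 2.07 FPKM at stage 3 (SD, n = 3 each). COPE1, at rank 161, encodes the epsilon subunit of coatomer, the coat of vesicles that carry proteins within the Golgi and back to the endoplasmic reticulum. COPE1 had 114, 90.4 and 82.3 FPKM in TW-1-M-1, against 127, 115 and 88.5 FPKM in TW-1-1. COPE1 at stage 2 had 95.5, 88.2 and 101 FPKM in TW-1-M-2, against 120.5, 90.6 and 86.8 FPKM in TW-1-2. COPE1 at stage 3 had 109, 81.97 and 90.8 FPKM in TW-1-M-3, against 109, 92.99 and 77.7 FPKM in TW-1-3. The SD of COPE1 was 0.224 within groups and 0.0882 between groups, and replicate 1 was the highest library in 5 of the 6 groups. COPE2, which encodes the same subunit, was not steady. COPE2 in TW-1-M averaged 28.4 ± 7.59 FPKM at stage 1, 65.5 ± 9.79 FPKM at stage 2 and 80.5 ± 25.8 FPKM at stage 3 (SD, n = 3 each). COPE2 in TW-1 averaged 25.5 ± 4.90 FPKM at stage 1, 35.00 ± 3.92 FPKM at stage 2 and 48.7 ± 28.3 FPKM at stage 3 (SD, n = 3 each). Its TW-1-3 values were 22.55 FPKM in replicate 1, the library that stood apart, and 78.75 and 44.94 FPKM in replicates 2 and 3. The SD was 0.206 for COPE1 and 0.714 for COPE2. The zeta subunit genes COPZ1 and COPZ2 had an SD of 0.974 and 0.718.

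CYP51 and BIN2 stand in sterol synthesis and in signalling by brassinosteroids, the steroid hormones of plants. CYP51, at rank 57, encodes the sterol 14-demethylase, a cytochrome P450. CYP51 had 24.9, 22.2 and 21.2 FPKM in TW-1-M-1, against 22.9, 23.2 and 23.5 FPKM in TW-1-1. CYP51 at stage 2 had 20.03, 28.3 and 21.3 FPKM in TW-1-M-2, against 25.6, 21.6 and 22.2 FPKM in TW-1-2. CYP51 at stage 3 had 26.3, 19.97 and 24.1 FPKM in TW-1-M-3, against 28.2, 31.2 and 23.4 FPKM in TW-1-3. The highest of the 18 values was in TW-1-3 replicate 2 and the lowest in TW-1-M-3 replicate 2, and the mutants overlapped at each stage. The SD of CYP51 was 0.170 around 23.9 FPKM. BIN2, at rank 67, encodes a GSK3-like kinase that in Arabidopsis holds brassinosteroid signalling back. BIN2 had 18.96, 18.4 and 15.5 FPKM in TW-1-M-1, against 15.3, 19.01 and 14.2 FPKM in TW-1-1. BIN2 at stage 2 had 15.7, 13.1 and 16.6 FPKM in TW-1-M-2, against 20.1, 13.4 and 14.8 FPKM in TW-1-2. BIN2 at stage 3 had 12.8, 15.2 and 15.4 FPKM in TW-1-M-3, against 15.2, 15.8 and 16.00 FPKM in TW-1-3. The mutants overlapped at each stage, while all TW-1-M-3 libraries lay below all TW-1-M-1 libraries. For BIN2 that comparison gave a log2 fold change of -0.27. Of the other 7 brassinosteroid genes found by symbol, 3 were eligible. They were the receptor gene BRI1B with an SD of 0.388 and the transcription factor genes BES1-6 with 0.388 and BES1-9 with 0.364, and none was a member.

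The last named members were a kinase and a copper chaperone. LOC100305422 has the synonym PBS1-1, and PBS1 in Arabidopsis is a receptor-like cytoplasmic kinase of immune signalling. PBS1-1 had 10.9, 12.96 and 13.9 FPKM in TW-1-M-1, against 14.46, 11.99 and 12.8 FPKM in TW-1-1. PBS1-1 at stage 2 had 15.2, 11.4 and 12.6 FPKM in TW-1-M-2, against 15.5, 12.9 and 15.4 FPKM in TW-1-2. PBS1-1 at stage 3 had 14.2, 12.4 and 15.4 FPKM in TW-1-M-3, against 16.1, 17.1 and 15.1 FPKM in TW-1-3. The mutants overlapped at each stage, and in TW-1 all stage 3 libraries lay above all stage 1 libraries. For PBS1-1 that comparison, TW-1-3 against TW-1-1, gave a log2 fold change of 0.28. The SD was 0.171 for PBS1-1 and 0.325 for PBS1-2 (LOC100305406), which ranked 1407 of the 10440 eligible genes. Their means were 13.9 FPKM for PBS1-1 and 14.7 FPKM for PBS1-2. CCS, at rank 88, encodes the chaperone that delivers copper to the copper/zinc superoxide dismutase. CCS had 47.7, 41.9 and 42.2 FPKM in TW-1-M-1, against 58.8, 54.8 and 42.5 FPKM in TW-1-1. CCS at stage 2 had 47.8, 47.9 and 55.03 FPKM in TW-1-M-2, against 50.04, 42.3 and 39.6 FPKM in TW-1-2. CCS at stage 3 had 56.3, 42.3 and 54.8 FPKM in TW-1-M-3, against 57.5, 52.2 and 45.6 FPKM in TW-1-3. The mutants overlapped at each stage, and the TW-1-M mean was lower at stages 1 and 3 and higher at stage 2. The SD of CCS was 0.182. Among the superoxide dismutases, which turn superoxide into hydrogen peroxide, SOD1 had an SD of 0.262 at rank 631, and SODB and SODB2, the second of which has the synonym FeSOD-2, had 0.978 and 1.376. Families were read from gene symbols after the members were known, and the differences in spread between members and relatives were not tested, since the members were chosen for theirs.

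**Figure D2:**
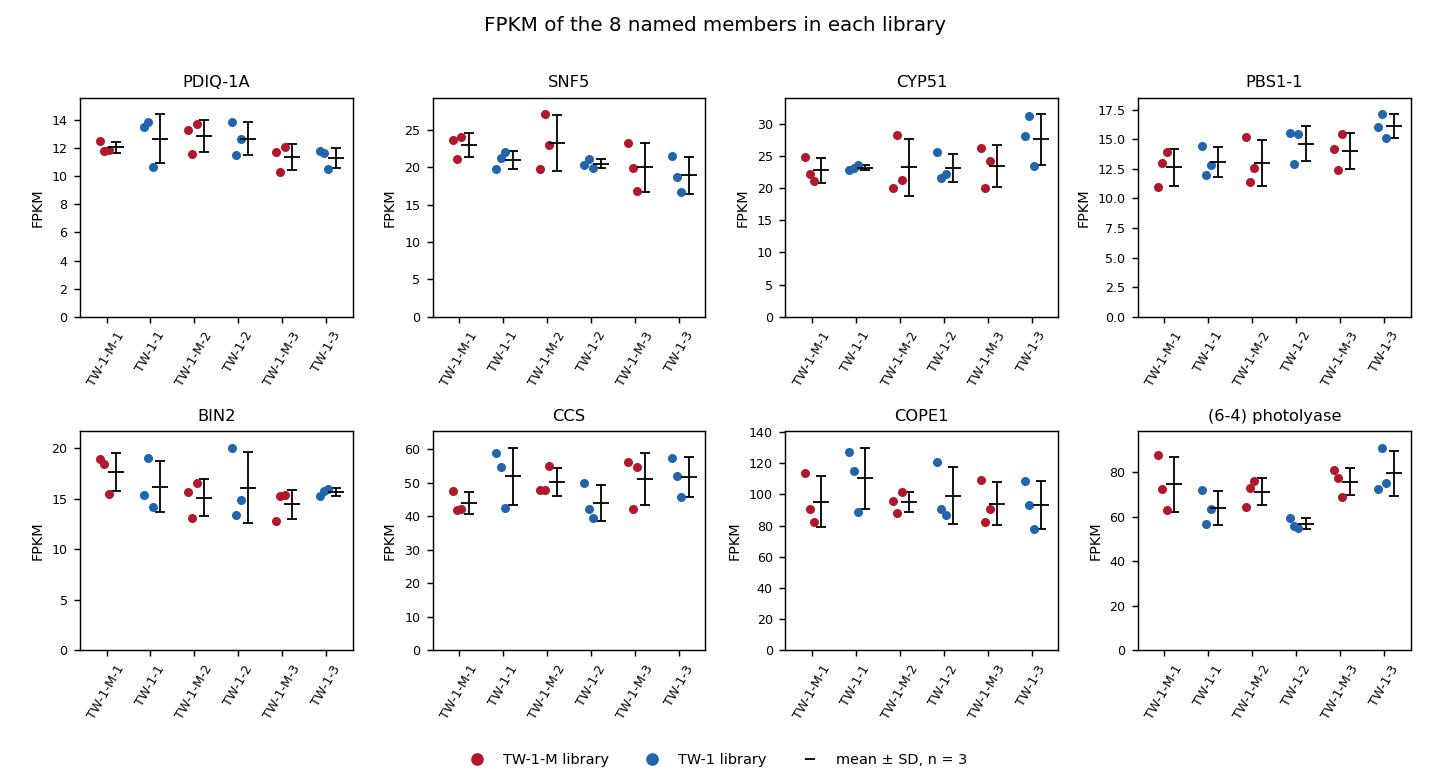
FPKM (y axis from 0) of the 8 members with a gene or product name in each of the 18 libraries, by group (x axis, TW-1-M in red and TW-1 in blue at each stage), with the mean ± SD of 3 libraries in black. Levels stayed within 1.34-fold for PDIQ-1A and within 1.65-fold for the photolyase, the narrowest and the widest of the 8.

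**Figure D3:**
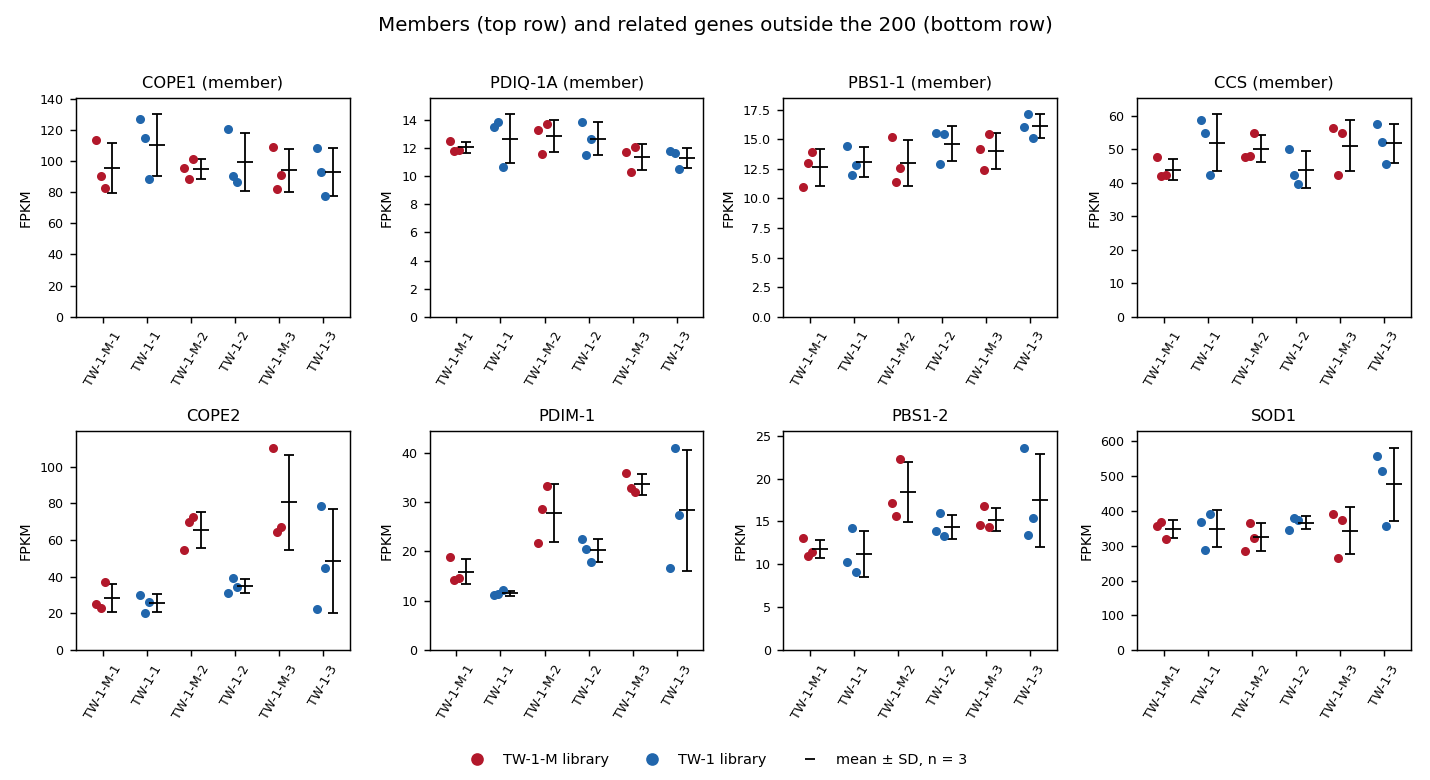
FPKM (y axis from 0) of 4 members in the top row and of a related gene for each in the bottom row, by group, with each library as a point and the mean ± SD of 3 libraries in black. COPE1 stayed near 97.8 FPKM, while COPE2 averaged 80.5 FPKM in TW-1-M-3, against 28.4 FPKM in TW-1-M-1. CCS is shown with the superoxide dismutase gene SOD1, which had an SD of 0.262 and lay outside the list at rank 631.

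At the upper end of the levels stood LOC548053, with a mean of 471 FPKM. LOC548053 had 422, 416 and 386 FPKM in TW-1-M-1, against 476, 366 and 495 FPKM in TW-1-1. LOC548053 at stage 2 had 391, 485 and 485 FPKM in TW-1-M-2, against 434, 445 and 450.2 FPKM in TW-1-2. LOC548053 at stage 3 had 538, 541 and 499 FPKM in TW-1-M-3, against 521, 562 and 572 FPKM in TW-1-3. In both mutants all stage 3 values lay above all stage 1 values, with a log2 fold change of 0.37 in TW-1-M and 0.32 in TW-1. LOC100805318 followed with a mean of 202 FPKM. LOC100805318 had 188, 215 and 178 FPKM in TW-1-M-1, against 241, 234 and 211 FPKM in TW-1-1. LOC100805318 at stage 2 had 155, 192 and 198 FPKM in TW-1-M-2, against 205, 214 and 207 FPKM in TW-1-2. LOC100805318 at stage 3 had 211, 189 and 156 FPKM in TW-1-M-3, against 204, 232 and 209.9 FPKM in TW-1-3. Its TW-1-M means were the lower ones at each stage, without overlap at stage 2. The next in level were LOC100791259, LOC548006 and LOC100797748, with means of 143, 136 and 134 FPKM. In LOC100791259 the value of TW-1-3 replicate 1, 226 FPKM, was the highest, and the other 17 values were 119.9 to 169 FPKM. The 5 members of lowest level, LOC100786056, LOC100786026, LOC100798885, LOC100782852 and LOC100808084, had means of 10.01 to 10.3 FPKM, at the minimum of the choice.

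The spread of the members lay mostly within groups. The SD between the 6 group means had a median of 0.120 in the members, and the pooled SD within groups had a median of 0.165. The SD between groups was the larger one in 40 members (20%), against 68% of the eligible genes. Both measures enter the choice, so this describes its members and was not tested. At one end, LOC100776439 had group means of 17.7 to 18.5 FPKM and an SD between groups of 0.0244, with an SD within groups of 0.188. At the other end, LOC100527135 had an SD between groups of 0.197 and an SD within groups of 0.118. LOC100527135 had 18.5, 18.4 and 21.8 FPKM in TW-1-M-1, against 26.2, 30.2 and 27.1 FPKM in TW-1-1. LOC100527135 at stage 2 had 20.4, 25.2 and 23.6 FPKM in TW-1-M-2, against 28.2, 28.8 and 28.5 FPKM in TW-1-2. LOC100527135 at stage 3 had 28.9, 22.8 and 24.6 FPKM in TW-1-M-3, against 25.5, 28.1 and 27.4 FPKM in TW-1-3. In LOC100527135 the TW-1-M libraries lay below all TW-1 libraries at stages 1 and 2 and overlapped with them at stage 3.

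**Figure D4:**
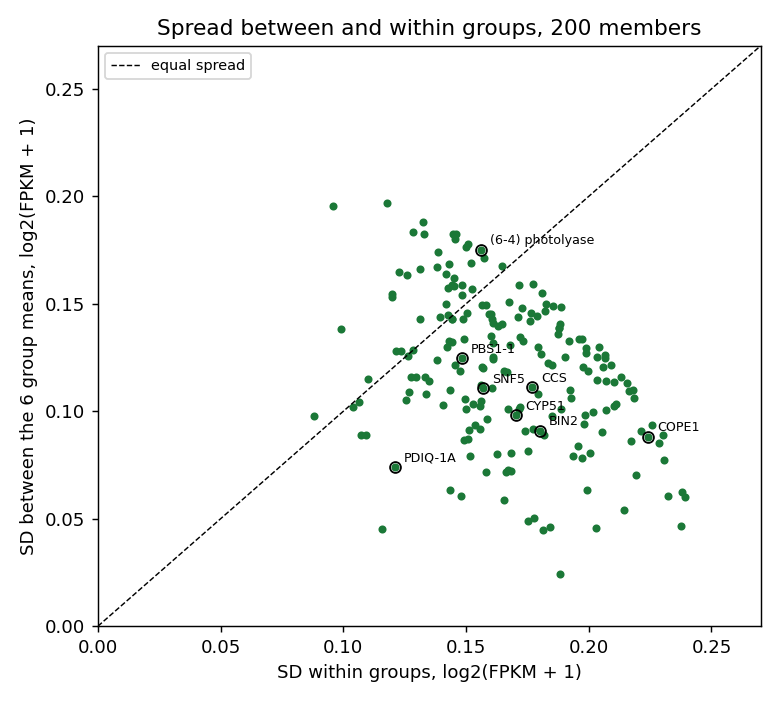
SD between the 6 group means (y axis) against the pooled SD within groups (x axis) of log2(FPKM + 1) for the 200 members, with the 8 named members circled and a dashed line where both are equal. Of the 200 points, 40 lie above the line, the photolyase among them.

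To see how far the even level carried over to libraries that had no part in the choice, the rule was applied to the 12 libraries of 2 replicate numbers, and the spread was read in the 6 libraries of the remaining number. With replicate 1 held out, the 200 chosen genes had a median SD of 0.159 in the libraries used and of 0.233 in the held-out libraries, where the median of the eligible genes was 0.685. With replicate 2 held out the median SD was 0.186 in the libraries used and 0.194 in those held out, against 0.584 in the eligible genes. With replicate 3 held out the median SD was 0.177 in the libraries used and 0.207 in those held out, against 0.510 in the eligible genes. In each of the 3 cases all 200 chosen genes had a smaller held-out SD than the median eligible gene, and the highest held-out SD of a chosen gene was 0.429 to 0.608. The chosen genes sat, at their median, between the 4.20 and the 6.75 percentile of the held-out SD. The lists made in this way shared 118, 148 and 148 genes with the members for replicates 1, 2 and 3 held out. Held-out libraries share their groups and the scaling of the table with the libraries used, and no test was made.

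The reference genes that could be matched were not among the members. Of 39 names of reference genes looked for, 5 were matched by symbol or synonym. SKIP16, an F-box protein gene, had an SD of 0.366 at rank 2001. GAPC1, the cytosolic glyceraldehyde-3-phosphate dehydrogenase of glycolysis, had an SD of 0.384 at rank 2264. Both lay below the median SD of the eligible genes, 0.612. GAPC1 averaged 368 ± 45.9 FPKM in TW-1-M-3, against 606 ± 112.7 FPKM in TW-1-M-1 (SD, n = 3 each). LOC100792119 carries both ACTIN and SAC6 as synonyms, so that its identity as an actin gene is uncertain, and had an SD of 0.758 at rank 6656. ELF1B, a translation elongation factor gene, and the beta-tubulin gene TUBB3 had an SD of 1.630 and 2.585, at ranks 9773 and 10377 of 10440. TUBB3 was lowest at 6.32 FPKM and highest at 1206 FPKM over the 18 libraries. Its SD was 2.19 within groups and 1.93 between groups. In TW-1-3 replicate 1, the library that stood apart, TUBB3 had 7.22 FPKM, against 1206 and 915 FPKM in replicates 2 and 3. ELF1B had 42.7 FPKM in that library, against 519 and 334 FPKM. Both genes were also uneven within other groups. TUBB3 had 7.75, 81.1 and 173 FPKM in TW-1-M-1, 34.5, 6.32 and 47.8 FPKM in TW-1-1 and 15.9, 261 and 224 FPKM in TW-1-2. It had 410, 540 and 773 FPKM in TW-1-M-2 and 724, 563 and 792 FPKM in TW-1-M-3. In TW-1-M-1, TW-1-1 and TW-1-2 the lowest library of TUBB3 was also that of ELF1B, with 15.1, 12.2 and 18.9 FPKM of ELF1B. Of 16 genes listed for seed storage and maturation proteins, 11 were eligible and 0 were members. The 11 eligible genes had a median SD of 1.88. Levels in the list were uneven, with means over the stage 1 libraries from 0 FPKM for BBI to 2943 FPKM for MAT1. The glycinin gene GY2 had 512 FPKM and GY3 had 2.90 FPKM, so only part of the list marked the tissue as seed. From TW-1-M-1 to TW-1-M-3, LEA-1 rose from 8.29 to 87.1 FPKM and LEA-2 from 8.41 to 26.5 FPKM. DEHYDRIN fell from 383 to 4.85 FPKM. Only 200 of the 10440 eligible genes were members, so 0 members in lists this short is near that share. The rule chose members by spread, so that none of these counts was tested.

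All 200 members passed the filter on low values, at least 1 FPKM in at least 3 libraries, as did 27150 genes in all. Between the mutants at stage 1, limma called 0 of the 200 members in TW-1-M-1 against TW-1-1 at an adjusted p-value below 0.05, where 0.468% of all genes tested were called. A single member, LOC100527135, was below 0.05 at the unadjusted p-value, with a log2 fold change of -0.48 ± 0.16 (SE). Of all 27150 genes, 4096 were below 0.05 unadjusted in this comparison. At stage 2, 0 members were called in TW-1-M-2 against TW-1-2 (19.2% of all genes), and 0 were below 0.05 unadjusted, against 11054 of all genes. At stage 3, 0 members were called in TW-1-M-3 against TW-1-3 (0.0184% of all genes), again with 0 below 0.05 unadjusted, against 2408 of all genes. Between the stages, 0 members were called by limma in TW-1-M-3 against TW-1-M-1 (53.8% of all genes) and 0 in TW-1-3 against TW-1-1 (0.991% of all genes). Unadjusted, 0 members were below 0.05 in both, against 16470 and 8277 of all genes. The counts over all genes depended on single libraries, and the count of members was 0 with any of them left out. Limma called 127 genes at stage 1, and 9 to 44 with any of the 6 libraries left out. At stage 2 it called 5213 genes, against 526 without TW-1-M-2 replicate 3, 710 without TW-1-M-2 replicate 2, 2906 without TW-1-M-2 replicate 1 and 3179 without TW-1-2 replicate 3. At stage 3 it called 5 genes, against 47 without TW-1-3 replicate 1 and 0 without any other library. In TW-1-3 against TW-1-1 limma called 269 genes, against 15849 without TW-1-3 replicate 1 and 0 or 1 without any other library. The choice took all 18 libraries and limits the differences of its members, so these zeros are a description. In TW-1-M-1 against TW-1-1, TW-1-M-3 against TW-1-3 and TW-1-3 against TW-1-1, 0 of 200 is also near the share of all genes. The zeros also belong to the deposited scale. After rescaling of each library to an equal sum, 41 members (20.5%) were called in TW-1-M-3 against TW-1-M-1, all of them higher. In that setting 56.2% of all genes were called. On that scale the median log2 fold change of all genes was 0.43 in this comparison, against 0.11 as deposited.

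The size of the differences is shown by their range. The log2 fold change of the members was -0.48 to 0.30 in TW-1-M-1 against TW-1-1, with a median of -0.04, and the median absolute change was 0.11 in the members and 0.28 in all genes. In TW-1-M-2 against TW-1-2 it was -0.38 to 0.42, and the median absolute change was 0.12 in the members and 0.50 in all genes. In TW-1-M-3 against TW-1-3 it was -0.54 to 0.37, with median absolute changes of 0.13 in the members and 0.41 in all genes. The lowest of these values belonged to LOC100527096, which averaged 33.2 ± 3.8 FPKM in TW-1-M-3 and 48.5 ± 3.1 FPKM in TW-1-3 (SD, n = 3 each). Between the stages, the members covered -0.47 to 0.41 in TW-1-M-3 against TW-1-M-1 and -0.48 to 0.40 in TW-1-3 against TW-1-1, with median absolute changes of 0.13 and 0.12, against 0.79 and 0.66 in all genes. Groups without overlap were found for 28 members at stage 1 (21.7% of all genes), 33 at stage 2 (47.2%) and 37 at stage 3 (21.3%). They were found for 39 members in TW-1-M-3 against TW-1-M-1 (66% of all genes) and for 30 in TW-1-3 against TW-1-1 (33.4%).

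The steadiness of the members was read on the scale that the authors gave the libraries. Summed over the 200 members, a library held 6335 to 7355 FPKM, a 1.16-fold range, while the summed FPKM of all genes ranged over 1.90-fold. As a share of its library the members therefore varied more. At stage 1 the members made up 0.660% ± 0.036 of all FPKM in TW-1-M-1, against 0.607% ± 0.062 in TW-1-1 (SD, n = 3 each). At stage 2 the shares were 0.855% ± 0.081 for TW-1-M-2, against 0.709% ± 0.065 for TW-1-2, and at stage 3 they were 0.885% ± 0.035 for TW-1-M-3, against 0.690% ± 0.133 for TW-1-3. The mean share was the higher one in TW-1-M at each stage, and the libraries of the mutants overlapped at stage 1 and did not at stages 2 and 3. No test was made, since the members were chosen on these values. A share is the members' sum over the sum of all genes, so a smaller total raises it by definition. The mean of the summed FPKM of all genes was the lower one in TW-1-M at each stage. The members' own sum was lower in TW-1-M at stages 1 and 3 and higher at stage 2. At stage 3 it averaged 6638 FPKM in TW-1-M-3, against 7083 FPKM in TW-1-3, with totals of 750907 and 1058750 FPKM. Differences in either sum were not tested. The median deviation of the members from their own means was -0.07 to 0.09 per library on the deposited scale and -0.39 to 0.38 after each library was rescaled to an equal sum. After that rescaling 26 of the 200 members were chosen again, and the median SD of the 200 was 0.290. Quantile normalization kept 102 of them with a median SD of 0.188. A rescaling over the genes other than the 100 most abundant of stage 1, added after the data had been seen, kept 83.

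**Figure D5:**
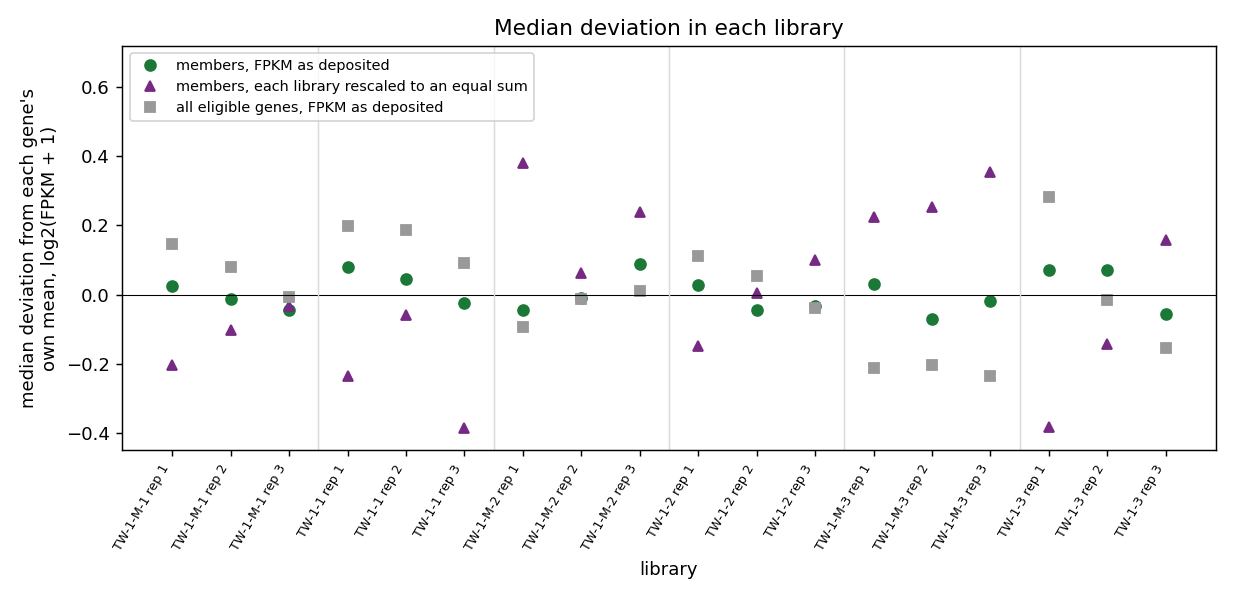
Median deviation of genes from their own mean over 18 libraries (y axis, log2 scale) in each library (x axis, by group), for the 200 members as deposited (green) and after rescaling of each library to an equal sum (purple), and for all 10440 eligible genes as deposited (grey). The members stay between -0.07 and 0.09 as deposited and spread between -0.39 and 0.38 after rescaling.

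Only 17 members were among the 200 smallest SDs under all of these scalings. The 3 whose largest SD over the scalings was smallest were LOC100796208, XR_001387593.1 and LOC100811862, with 0.162, 0.168 and 0.181. LOC100796208 had 11.3, 11.6 and 11.6 FPKM in TW-1-M-1, against 12.00, 10.4 and 12.1 FPKM in TW-1-1. LOC100796208 at stage 2 had 9.51, 12.01 and 9.92 FPKM in TW-1-M-2, against 11.7, 11.4 and 9.78 FPKM in TW-1-2. LOC100796208 at stage 3 had 9.44, 8.73 and 9.79 FPKM in TW-1-M-3, against 13.3, 11.1 and 8.70 FPKM in TW-1-3. TW-1-M-3 had the lowest mean of LOC100796208, with all its libraries below those of TW-1-M-1. XR_001387593.1 is the non-coding member. Its 18 values lay between 27.6 and 44.00 FPKM, with 31.04 ± 4.46 FPKM in TW-1-M-3, against 37.9 ± 5.67 FPKM in TW-1-3 (mean and SD, n = 3 each). Its lowest group was also TW-1-M-3, which overlapped with TW-1-3. The 17 covered means of 10.4 FPKM (LOC100806226) to 202 FPKM (LOC100805318), and none of the 8 named members was among them. On the deposited scale 128 members were chosen again in every one of the 18 choices that left out a library, among them PDIQ-1A, SNF5, CYP51, PBS1-1, BIN2 and CCS, and COPE1 in 14. These 17 genes were picked out after their values were seen.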

How the data were processed

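RNA-seq of 18 libraries, 3 per group, was used. The authors removed rRNA, trimmed reads with Trimmomatic, mapped them with TopHat allowing up to 2 mismatches, and computed FPKM with cuffquant and cuffnorm; tool versions are not given in the sources used here. The deposited table holds FPKM per gene and library, scaled by the authors, with no read counts per gene. The study states the reads of each library, which were not used here, so no counting error was computed. Every column was matched to its group and replicate by name. Log2(FPKM + 1) of the 27150 genes with at least 1 FPKM in at least 3 libraries entered limma 3.58.1 under R 4.3.3 (linear model, moderated variance with a trend, two-sided, Benjamini-Hochberg adjustment, 6 libraries per comparison), and the fit was tested on simulated data. Ranks and spreads were computed with Python 3.11.15, NumPy 2.4.6 and pandas 2.3.3. A fold change is on the log2(FPKM + 1) scale.

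Gene symbols came from RefSeq genes of Glycine_max_v4.0 by accession without its version (36767 of 45955 genes); this assembly differs from that of the reads, so no coordinates are given, and sequence features were not analysed here. Named genes were the 10 members of smallest SD, the 5 of highest and the 5 of lowest mean, the 5 on either side of the limit, members with a gene or product name, and reference genes. Genes with the largest differences, and relatives of named members, were named after their values were seen. Members and lists were chosen with earlier results of these data known. Alternatives were another pseudocount, filter, scaling, measure of spread, minimum level or fit, and leaving out libraries. The study's qRT-PCR references ACT11, TUA and CYP2 were among the names looked for. They were not matched by symbol or synonym, so they have no values here.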

Additional observations from a re-analysis of the deposited data

How the results depend on the processing

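The choice of members depended on the scaling. Of the 200 members, 26 were chosen again after each library was rescaled to an equal sum, 102 after quantile normalization and, in a scaling added after the data had been seen, 83 after rescaling over the genes other than the 100 most abundant of stage 1. A mean of at least 5 FPKM kept 125, and one of at least 20 FPKM kept 103, since 97 members lie below it. The range and the coefficient of variation in place of the SD kept 152 and 180. Leaving out a single library kept 142 to 184, and leaving out 1 replicate number kept 118 to 148. The median SD was 0.180 to 0.190 with single libraries left out and 0.290 with libraries rescaled to an equal sum.

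Limma called 0 members in the 5 comparisons, also with every single library left out. The exceptions are given with the share of all genes called in the same setting. In TW-1-M-3 against TW-1-M-1 they were 41 members after rescaling to an equal sum (all higher, 56.2% of all genes) and 3 after quantile normalization (52.9%). That comparison also had 7 without the filter on low values (26.6%) and 2 with all 18 libraries in one fit (52.2%). TW-1-3 against TW-1-1 had 2 in that fit (35.6%), and TW-1-M-2 against TW-1-2 had 1 without the filter (2.53%). With libraries at an equal sum the median log2 fold change of all genes was 0.43 in TW-1-M-3 against TW-1-M-1 and 0.12 to 0.37 in the other comparisons. Over all genes, the alternatives other than leaving out libraries called 14 to 318 genes at stage 1 (127 as reported), 1162 to 7686 at stage 2 (5213), and 0 to 851 at stage 3 (5) between the mutants, and 12202 to 15256 (14601) in TW-1-M and 1 to 9655 (269) in TW-1 between the stages. In TW-1-M-3 against TW-1-M-1, 10372 to 14976 genes were called with single libraries left out. The causes were not tested. Whether replicate numbers pair the libraries was not settled. In no comparison did every same-numbered pair correlate above 0.1 in its deviations from the group means. In TW-1-M-2 against TW-1-2 these correlations were 0.067 to 0.280, with a mean of 0.182, against -0.089 for the other pairs. In TW-1-M-3 against TW-1-3 the means were -0.200 and 0.101. The fit with the number as a block called 7686 genes at stage 2 (5213 as reported), and 0 members in each comparison. Without counts, the error of single low values was not computed, and the promoter and protein comparisons planned could not be run.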
